A study of Mus musculus with 8 samples.

Results

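Endothelial nuclei, from the cells that line blood vessels, made up 329 of the 77185 nuclei kept from the cortex of 8 mice, or 0.426% (exact Clopper-Pearson 95% interval 0.382 to 0.475%). That interval covers counting error over the pooled nuclei only, and the shares of single libraries ran from 0.188 to 0.820%. A nucleus was kept when at least 500 genes were detected in it and at most 2% of its unique molecular identifiers (UMIs, the tags that mark separate captured RNA molecules) came from mitochondrial genes. It was called endothelial when Flt1, Mecom, Adgrl4, Cldn5 and Pecam1 together had at least 4 UMIs, and when it had at most 1 UMI of the mural genes Atp13a5, Notch3 and Abcc9, at most 1 of the fibroblast genes Col1a2 and Slc6a13, at most 1 of the neuronal genes Slc17a7, Gad1 and Gad2, and at most 2 of the glial genes Slc1a3, Mog and Inpp5d. The endothelial threshold alone was met by 494 kept nuclei. The mural limit left 445 of them, the fibroblast limit 437, the neuronal limit 352 and the glial limit 329. At the threshold, 11 endothelial nuclei had exactly 4 UMIs of the 5 genes, and 14 nuclei that met every other limit stood just outside with 3. The nuclei were thus chosen by the UMI counts of these genes in the same libraries, so their levels, and any contrast of endothelial nuclei with the rest, are given as a description without a test.

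The mice were of the C57BL/6J strain and 25 days old, and their dissected cortex, with its medial part removed, was frozen and its nuclei isolated, 1 library per mouse. The 4 wild-type (WT) libraries came from 2 males and 2 females, and so did the 4 libraries labelled Chd8+/-, which carry an altered copy of the chromatin remodeller Chd8 whose allele is not described in the sources used here. WT and Chd8+/- mice were taken as pairs matched for litter and sex, but no label ties a given WT library to its Chd8+/- partner. Replicate 1 of each genotype and sex was single-indexed and replicate 2 dual-indexed, which are 2 ways of tagging a library before sequencing.

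Brain endothelial cells seal the vessel wall with tight junctions, keep vesicle traffic across the wall low and carry nutrients, hormones and drugs in or out through transporters, and these properties together make the blood-brain barrier. The barrier state depends on Wnt and beta-catenin signalling, and vessel growth and stability depend on VEGF and angiopoietin receptors. Along the vessel tree, arterial, capillary and venous endothelial cells differ in a graded way in the genes they use.

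The endothelial nuclei were shallow. By library they numbered 17, 47, 22 and 56 in WT male 1, WT male 2, WT female 1 and WT female 2, and 58, 38, 22 and 69 in the same order for Chd8+/-. Their median UMI count lay between 1294.5 and 2064 by library, against 5239 to 8464 in the other kept nuclei, in libraries of 69503598 to 98132783 UMIs. Single endothelial nuclei ranged from 661 to 29640 UMIs, with a median of 1706, and from 524 to 5402 genes, with a median of 1132. A single nucleus could weigh heavily in a sum: the deepest held 21.9% of all endothelial UMIs of WT male 2, and the deepest of WT male 1 held 21.8% of that library's. Endothelial median mitochondrial shares were 0.23 to 0.73% by library, against 0.07 to 0.23% in other nuclei. No endothelial barcode occurred in more than 1 library, and 16 endothelial nuclei were predicted doublets. Chd8 itself did not separate the labels: over all kept nuclei it had 0.789 ± 0.028 UMIs per 10,000 in WT and 0.806 ± 0.065 in Chd8+/- libraries (mean ± SD, n = 4 each). Whether these 3′ counts cover the altered part of the gene is not known, so they do not check the labels.

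**Figure D1:**
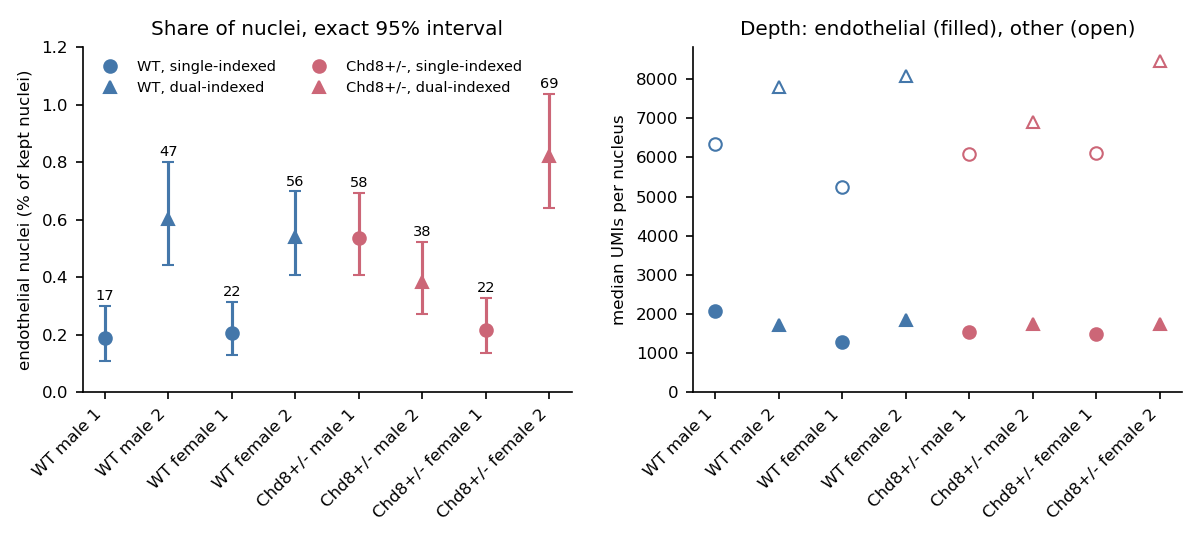
Left, endothelial nuclei as percent of kept nuclei in each of 8 libraries, with exact 95% intervals and the number of nuclei above each. Right, median UMIs per endothelial nucleus (filled) and per other kept nucleus (open). The shares run from 0.188% to 0.82%, and every endothelial median lies below that of the other nuclei of its library.

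The markers given for the cell type were present in the nuclei that the rule chose. Levels throughout are UMIs per 10,000 UMIs of the nuclei summed in a library, with the mean and SD over libraries. Flt1, the VEGF receptor that acts largely as a decoy, had 23.3 ± 5.4 (n = 8) in endothelial nuclei and 0.0371 in other nuclei. Mecom, a transcription factor of endothelial cells, had 17.3, 21.6, 12.2 and 26.1 in the WT libraries and 15.1, 17.4, 9.19 and 23.7 in the Chd8+/- libraries, against 0.0204 in other nuclei. Adgrl4, an adhesion receptor of sprouting vessels, had 14.5 ± 3.3, and Cldn5, the main claudin of brain tight junctions, 4.46 ± 1.96. Pecam1, an endothelial adhesion molecule, had 2.80 ± 1.11. All 25 genes of an endothelial identity list, among them Ptprb, Egfl7, Tek, Eng, Erg and Cdh5, were more than 5-fold higher than in other nuclei. The contrast with nuclei gated as mural was smaller. As a sum the list had 79.2 in endothelial nuclei, 26.6 in mural nuclei and 6.63 in nuclei gated as fibroblast. After each nucleus of at least 1000 UMIs was thinned to 1000, Flt1 was seen in 252 of 296 endothelial nuclei (85.1%, exact 95% interval 80.6 to 89.0%), against 0.458% of 2400 other nuclei drawn from the same libraries. The median depths before thinning were 1814.5 and 6829 UMIs. Cldn5 was seen in 29.1% of the thinned endothelial nuclei against 0.125% of the others. Both genes helped choose the nuclei, so these shares describe the choice and test nothing. The interval treats the pooled nuclei of 8 mice as separate draws and leaves out the spread between libraries.

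The leading genes outside the rule were chosen by their ratio over other nuclei, so their ratios describe them and test nothing. Among 1187 genes with at least 5 endothelial UMIs in every library and a mean endothelial CPM (counts scaled to a fixed library total) of at least 50, the largest ratio over other nuclei belonged to Slco1a4, an organic anion transporter of the blood-brain barrier. Its levels were 27.6, 18.6, 25.0 and 27.1 in the 4 WT libraries and 17.8, 16.4, 15.1 and 22.9 in the 4 Chd8+/- libraries, against a mean of 0.0269 in other nuclei, a ratio of 793. Every endothelial library lay far above that mean, and the genotypes overlapped. Thinned to 1000 UMIs, 77.7% of endothelial nuclei had a Slco1a4 UMI, against 0.333% of other nuclei. The next genes by ratio were Dipk2b at 1.54 ± 0.70, Rassf9 at 1.75 ± 0.71 and Adgrf5, an adhesion receptor, at 4.54 ± 1.38. The other 11 of the 15 leading genes were Ctla2a, Ly6c1, Ly6a, Cyyr1, Klf2, Abcb1a, Srgn, Id1, Ramp2, Nostrin and Itm2a, and the smallest of the 15 ratios was 241. The group holds a drug efflux pump (Abcb1a), a flow-induced transcription factor (Klf2), a BMP target (Id1), a receptor activity-modifying protein (Ramp2) and a regulator of endothelial nitric oxide synthase (Nostrin). Their levels depended on which nuclei were summed, and 22 of 75 levels recomputed under 5 other choices moved by more than the SD between libraries. Ramp2, at 5.15, was 1.83 in nuclei of at least 1000 genes and at most 1% mitochondrial UMIs and 10.1 in nuclei without any UMI of a limiting gene, and Id1, at 2.76, was 1.35 and 4.88.

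**Figure D2:**
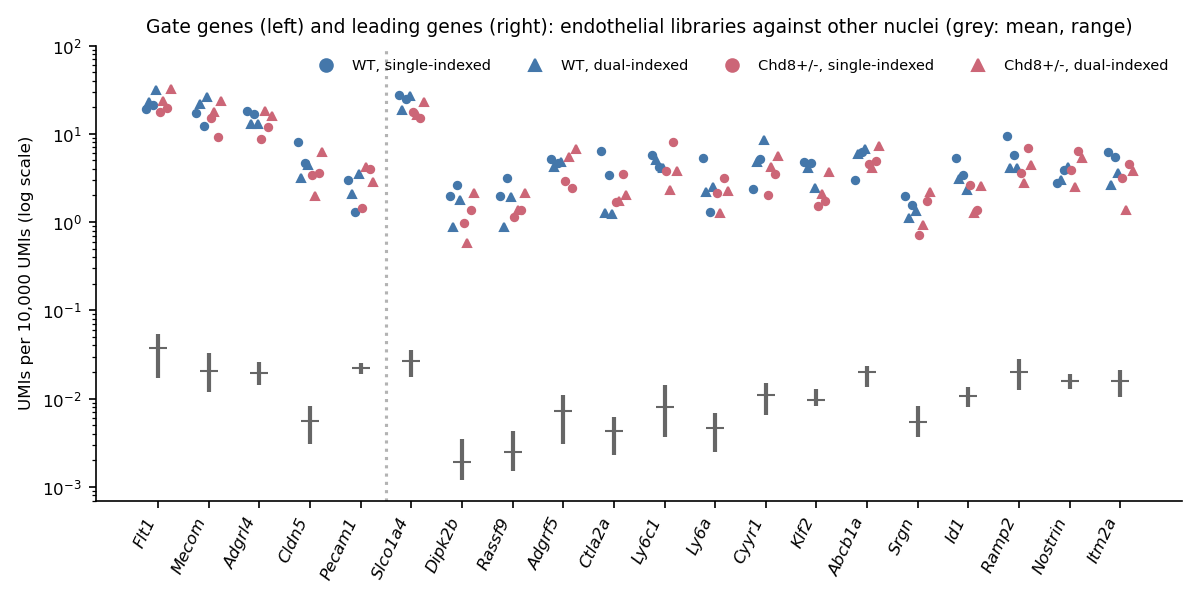
UMIs per 10,000 UMIs on a log axis for the 5 gate genes (left of the dotted line) and the 15 leading genes outside the gate. Coloured points are endothelial nuclei summed per library, and grey bars give the range and mean over libraries of the other kept nuclei. For each gene all 8 endothelial points lie above the grey range.

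Promoters of the first leading genes with an entry in the RefSeq promoter table are shown because sites of ETS factors, which hold the core GGAA, are common near endothelial genes. Each run is the 250 bases before the annotated start on the gene's own strand (GRCm38.p6), with each match of AGGAAG on either strand in capitals.
Slco1a4, chr6:141856221-141856470, minus strand: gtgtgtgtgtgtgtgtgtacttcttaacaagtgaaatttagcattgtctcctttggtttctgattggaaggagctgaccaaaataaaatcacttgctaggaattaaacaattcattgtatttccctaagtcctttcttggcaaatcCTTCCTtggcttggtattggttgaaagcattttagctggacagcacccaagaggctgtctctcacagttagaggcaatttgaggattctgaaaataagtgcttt
Dipk2b, chrX:18461398-18461647, minus strand: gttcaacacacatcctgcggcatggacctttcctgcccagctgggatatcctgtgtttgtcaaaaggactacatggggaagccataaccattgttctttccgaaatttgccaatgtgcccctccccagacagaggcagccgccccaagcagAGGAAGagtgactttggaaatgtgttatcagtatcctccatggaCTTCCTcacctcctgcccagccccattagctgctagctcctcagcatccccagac
Adgrf5, chr17:43360181-43360430, plus strand: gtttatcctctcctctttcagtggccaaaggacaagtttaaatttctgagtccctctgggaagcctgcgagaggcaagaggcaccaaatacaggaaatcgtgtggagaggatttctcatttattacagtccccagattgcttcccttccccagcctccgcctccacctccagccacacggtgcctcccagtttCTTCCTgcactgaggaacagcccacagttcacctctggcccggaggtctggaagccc
AGGAAG occurred in 9 of the 15 promoters of 11 leading genes with an entry (60.0%), against 29.5% of all 32851 promoters of the table. A later annotated start of Adgrf5 held no match. ACAAAG, part of SOX sites, occurred in 13.3% against 16.5%, and TGTTTAC, a forkhead motif, in 6.67% against 3.17%. The 3 motifs were sought and counted separately, each on both strands, and a match describes the letters only.

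The list of blood-brain barrier transporters had the highest sum among the endothelial gene lists. The 27 listed transporters summed to 118 ± 23 UMIs per 10,000 in endothelial nuclei and to 6.99 in other nuclei, and 21 of the 27 were more than 5-fold higher in the former. Slc2a1, the glucose transporter of the barrier, had 20.7, 8.95, 12.2 and 7.32 in the WT libraries and 8.92, 6.65, 9.36 and 7.85 in the Chd8+/- libraries, against 0.0726 in other nuclei. WT male 1 stood highest and the remaining 7 libraries lay within 6.65 to 12.2. Slco1c1, which carries thyroid hormone, had 11.2 ± 2.6, and Slc7a5, a large neutral amino acid transporter, 6.71 ± 2.48. The efflux pumps Abcb1a and Abcg2 had 5.32 ± 1.44 and 6.65 ± 1.74, and Atp10a, a phospholipid flippase, 9.30 ± 2.19. Tfrc, the transferrin receptor, had 4.98 ± 2.30 in endothelial and 0.450 in other nuclei. Mfsd2a, a lipid transporter that holds transcytosis down, had 1.41 ± 0.34 against 0.0444. In the thinned nuclei Slc2a1 was seen in 58.8%, Abcg2 in 52.0% and Abcb1a in 45.6% of endothelial nuclei, against 1.04%, 1.42% and 0.167% of other nuclei.

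Junction genes were mixed in how far they marked these nuclei, with 12 of 20 listed genes more than 5-fold above other nuclei. Ocln, the tight junction protein occludin, had 2.14 ± 0.79 against 0.0404, and Cdh5, the cadherin of endothelial adherens junctions, 1.28 ± 0.52 against 0.0091. The scaffold Tjp1 had 13.7 ± 2.9 against 4.33, and Magi1, another scaffold, 4.60 ± 1.43 against 4.57. Ocln and Cdh5 were near 0 in other nuclei, and the scaffolds were not.

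Receptors of vessel growth and signalling genes followed. Tek, the angiopoietin receptor Tie2, had 3.97, 3.99, 4.69 and 5.60 in the WT libraries and 2.29, 2.41, 3.12 and 4.17 in the Chd8+/- libraries, against 0.30 in other nuclei. Ptprb, the phosphatase that restrains Tie2, had 9.99 ± 3.04 and Kdr, the main VEGF receptor, 1.56 ± 0.62 against 0.0047. Of the Wnt list, Lef1, a nuclear partner of beta-catenin, had 6.50 ± 1.90 against 0.0405, Apcdd1, a Wnt target of the barrier, 3.4 ± 1.3 against 0.0327, and the receptor Fzd6 1.71 ± 0.60 against 0.017. Of the TGF-beta and BMP list, the co-receptor Eng had 3.3 ± 1.1, the receptor Acvrl1 1.2 ± 0.4 and the target Id1 2.76 ± 1.29, against 0.0157, 0.0077 and 0.0106. Notch4, an endothelial Notch receptor, had 0.81 ± 0.25 against 0.008. In the basement membrane list Fn1, fibronectin, had 4.06 ± 1.00 against 0.0351, and the collagen genes Col4a1 and Col4a2 2.59 ± 1.08 and 2.98 ± 1.18. Ebf1, listed among endothelial regulators, had 9.90 ± 3.41 in endothelial nuclei and 20.8 in mural nuclei, so it did not mark endothelial nuclei against the cells of the vessel wall beside them. As sums, the lists differed in this respect. The Notch list had 10.25 in endothelial nuclei, 14.42 in mural nuclei and 12.04 in nuclei gated as fibroblast. In the same order, the TGF-beta and BMP list had 27.33, 10.49 and 36.36. The basement membrane list had 34.01, 27.31 and 21.68, and the Wnt list 24.64, 11.17 and 17.87. The VEGF and angiopoietin list stood far higher in endothelial nuclei, at 61.29 against 5.297 and 5.835.

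RNA of other cell types was present in the summed endothelial counts. The 12 excitatory neuron markers, among them Syt1, Grin2b, Snap25 and Camk2a, summed to 43.4 UMIs per 10,000, which is 49.6% of their sum in other nuclei (38.4 to 60.7% by library). Slc17a7, which the gate limits, was seen in 15.5% of the thinned endothelial nuclei and in 17.6% of the other nuclei. The inhibitory neuron markers summed to 36.5 in WT female 2 and to between 2.19 and 10.9 in the other 7 libraries. Of the 36.5, Erbb4 made up 21.9, and it was at 9.17 without the nucleus that held most of its UMIs. That nucleus held 166 of the library's 282 Erbb4 UMIs. This 1 gene made up 8.39% of its 1979 UMIs, the highest share of inhibitory markers in any endothelial nucleus. Mural markers summed to 4.57 against 59.3 in 236 nuclei gated as mural, with Kcnj8 and Anpep at 0 UMIs. Fibroblast markers summed to 0.612 against 74.7 in 65 nuclei gated as fibroblast, with Col1a1, Slc6a13, Lum and Slc47a1 at 0. The macrophage genes Mrc1, Cd163 and Lyve1 were also at 0.

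Arterial and venous marking depended on which genes were counted. In the 296 nuclei thinned to 1000 UMIs, a nucleus was called arterial-marked when it had at least 2 UMIs of the arterial list and more of them than of the venous list, and venous-marked in the opposite case. This is a range of a count, not a type. The full lists marked 87 nuclei (29.4%) as arterial and 81 (27.4%) as venous, but they also marked 10.5% and 5.5% of other nuclei, where Arl15 and Tshz2 had 3.82 and 2.39 UMIs per 10,000. Without Arl15, Tshz2 and Clu, a choice made after the data were seen, 26 nuclei (8.78%) were arterial- and 51 (17.2%) venous-marked, against 0.625% and 0.292% of other nuclei. With the shorter lists, Cxcl12, a chemokine that took no part in the marking, had 58 UMIs in the arterial-marked nuclei (22.3 per 10,000), 11 in the venous-marked (2.16) and 191 in the 219 unmarked ones (8.72). Slco1a4 went the other way, with 20.4 in arterial-marked, 37.1 in venous-marked and 28.1 in unmarked nuclei. Slc16a1, a monocarboxylate transporter, had 0.385 in arterial-marked nuclei (1 UMI), 3.73 in venous-marked (19 UMIs) and 1.78 in unmarked (39 UMIs). Slc2a1 differed less, at 14.6, 16.9 and 10.2. Among the genes used in the marking, Il1r1, the interleukin-1 receptor, had 17.1 in venous-marked nuclei and none in arterial-marked ones, and Mgp, a matrix protein, 5.0 in arterial-marked and none in venous-marked ones. These sums pool nuclei of all 8 libraries, and no error is given for them. Their spread between nuclei and between libraries was not measured. Before thinning, the top nucleus of a library held from 16.1% (WT male 2) to 68.8% (WT male 1) of its Cxcl12 UMIs.

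The first comparison asked whether the Chd8+/- genotype goes with more or fewer endothelial nuclei. The share was 0.188, 0.603, 0.207 and 0.538% in the WT libraries and 0.537, 0.382, 0.216 and 0.820% in the Chd8+/- libraries. The genotypes overlapped over most of the range. The means were 0.384 ± 0.217% in WT and 0.489 ± 0.257% in Chd8+/- (SD, n = 4 each), a difference of 0.105 percentage points that did not pass an exact two-sided permutation test (p = 0.543, adjusted p = 0.80 over 4 measures, smallest possible p 0.0286). Within single-indexed libraries the difference was 0.179 and within dual-indexed libraries 0.0305 points, and without Chd8+/- female 2 it was -0.0058. Dual-indexed libraries held 0.586% and single-indexed ones 0.287% (exact permutation p = 0.0571, adjusted p = 0.229 over 4 measures, 4 libraries each). The median UMI count per endothelial nucleus was 1726 ± 323 in WT and 1627 ± 125 in Chd8+/- (exact permutation p = 0.60, n = 4 each), and the sign of the difference turned without WT male 1 (13.6).

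Marked shares by genotype did not pass the test either. Arterial-marked nuclei by the full lists were 18.8, 23.8, 20.0 and 34.0% in WT and 28.0, 35.1, 30.0 and 32.8% in Chd8+/-. In 3 of 4 cases the Chd8+/- library was above the WT library of the same sex and number, and the ranges overlapped. The difference of 7.34 percentage points had an exact permutation p of 0.114 (adjusted p = 0.457, n = 4 each), and it was -0.115 with the shorter lists and -7.95 among nuclei of at least 1000 genes and at most 1% mitochondrial UMIs. Venous-marked nuclei were 31.3 ± 17.3% in WT and 27.2 ± 5.0% in Chd8+/- (exact permutation p = 0.886, n = 4 each). WT male 1 held 9 of 16 nuclei, or 56.3%, in that class, and without it the difference turned from -4.14 to 4.17 points.

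Single genes were compared in summed counts with edgeR's quasi-likelihood test, with sex as a term. Of 2626 genes tested, 0 (0%) were called at an adjusted p under 0.05 between genotypes. At an unadjusted p under 0.05 there were 83 (3.16%), 46 higher and 37 lower in Chd8+/-. DESeq2 likewise called 0 genes, while 35 had an unadjusted p under 0.05. In 56 genes (2.13%) the 4 libraries of 1 genotype all lay above the other 4. The same test of the genotype difference in endothelial nuclei against that in all other kept nuclei called 0 genes (0%). An unadjusted p under 0.05 was reached by 121 (4.61%). The DESeq2 fit of that difference also called 0 genes, and 65 reached an unadjusted p under 0.05. Chd8 itself had 5, 6, 5 and 6 UMIs in WT and 17, 10, 6 and 12 in Chd8+/- endothelial nuclei, or 0.801 ± 0.419 and 1.01 ± 0.14 per 10,000 (log2 difference 0.58 ± 0.45 SE, unadjusted p = 0.218). With 67 UMIs in all, its level in these nuclei is known only roughly. Of the CHD family, 6 of 9 genes could be tested and 0 were called, with 5 log2 differences above 0 and 1 below.

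The genes with the 10 smallest unadjusted p-values are given by their values, since each had an adjusted p of 0.999 in edgeR's quasi-likelihood test. Maoa, monoamine oxidase A (chrX:16619698-16687818, plus strand, GRCm38 with GENCODE M21), had 2.19, 1.40, 1.30 and 2.10 in WT and 0.663, 0.574, 0.520 and 1.23 in Chd8+/- (log2 -1.13 ± 0.35 SE), so the genotypes did not overlap, although WT female 1 rests on 5 UMIs and would be at 0.811, below Chd8+/- female 2, without the nucleus that holds 2 of them. Its mean over the 8 endothelial libraries was 1.25, against 0.159 in other nuclei. Sorcs3, a sorting receptor of neurons (chr19:48206025-48805505, plus strand), had 2.78, 2.37, 2.60 and 2.10 in WT and 0.964, 0.688, 1.73 and 0.888 in Chd8+/- (log2 -1.24 ± 0.34), and its level in other nuclei was higher than in either, at 3.63. The lack of overlap in Sorcs3 depends on single nuclei: 1 nucleus held 53.1 to 64.3% of its UMIs in each WT library. Without that nucleus the WT levels were 1.27, 1.2, 1.22 and 0.907, all below Chd8+/- female 1 at its full count. With the top nucleus also left out of each Chd8+/- library, those levels were 0.748, 0.491, 1.15 and 0.792. Then only WT female 2 lay below Chd8+/- female 1. Plat, the plasminogen activator that vessels release (chr8:22757727-22782844, plus strand), had 1.99, 1.63, 0.260 and 1.32 in WT and 0.663, 0.688, 0.173 and 0.615 in Chd8+/- (log2 -1.24 ± 0.43), and the genotypes overlapped through WT female 1. It too had a lower level in other nuclei, 0.143. Sos1, a Ras exchange factor, had a log2 difference of -1.24 ± 0.43. The remaining 6 were higher in Chd8+/-: Pdzrn4, Cntn5, Gm49678, Stmn2, Prr16 and Lsamp, with log2 differences of 1.00 to 1.53. With a threshold of 8 UMIs of the 5 choosing genes, Prr16 was at 0.24 instead of 1.30, Pdzrn4 at 0.66 instead of 1.53, Cntn5 at 0.63 instead of 1.03 and Sos1 at -0.77. Prr16 was at 0.81 without Chd8+/- female 1. A single nucleus of Chd8+/- male 1, with 23189 UMIs, held 22.0% of the Pdzrn4, 10.9% of the Prr16 and 10.3% of the Cntn5 UMIs, and Cntn5 was at 0.56 without nuclei over 5000 UMIs. Each of these 6 was lower in WT endothelial nuclei than in other nuclei, and Cntn5 and Lsamp encode adhesion proteins of neurons. Lsamp had 6.36, 15.01, 22.9 and 12.7 in WT and 33.3, 35.5, 24.8 and 19.5 in Chd8+/-, against 48.0 in other nuclei. Its difference was -0.10 instead of 1.00 on the log2 scale when nuclei with any UMI of a limiting gene were left out, 0.40 with the threshold of 8 UMIs, 0.38 without nuclei over 5000 UMIs and 0.66 without WT male 1.

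**Figure D3:**
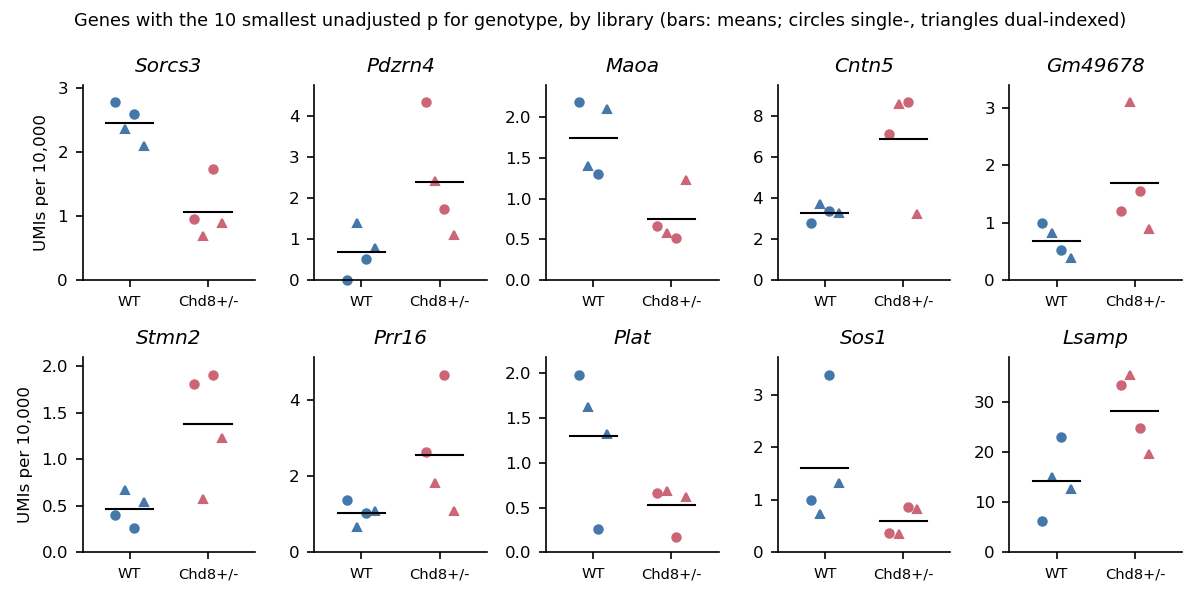
UMIs per 10,000 UMIs in endothelial nuclei for the 10 genes of smallest unadjusted p, 1 point per library (4 WT, 4 Chd8+/-), with bars at the means. Maoa and Sorcs3 show no overlap between genotypes, which for both ends when the nucleus with most UMIs of the gene is left out of 1 WT library, and in the other 8 panels at least 1 library reaches into the range of the other genotype.

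Most tested genes of the endothelial identity and transporter lists lay below 0 in Chd8+/- against WT, although 0 were called. Among all 2626 genes 1307 (49.8%) lay below 0, 3.16% had an unadjusted p under 0.05 and the median log2 difference was 0.0019. For the endothelial identity list it was -0.35, with 19 of 21 tested genes below 0 and 3 (14.3%: Tek, Egfl7 and Esam) at an unadjusted p under 0.05. For the transporter list it was -0.29, with 21 of 24 below 0 and 3 (12.5%: Slc22a8, Slc16a1 and Tfrc) at an unadjusted p under 0.05. The medians of both lists were below 0 in 22 of 22 settings of the fit, from -0.52 to -0.17 for identity and from -0.57 to -0.09 for transporters. The ends nearest 0 came with the threshold of 8 UMIs, where 16 of 20 identity genes and 18 of 25 transporters lay below 0. The summed transporter level was 144, 109, 147 and 135 in WT and 86.4, 93.2, 103 and 130 in Chd8+/-. The summed identity level was 85.0, 71.0, 88.3 and 107 in WT and 53.1, 78.4, 61.7 and 88.6 in Chd8+/-. For both sums the ranges of the genotypes overlapped.

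**Figure D4:**
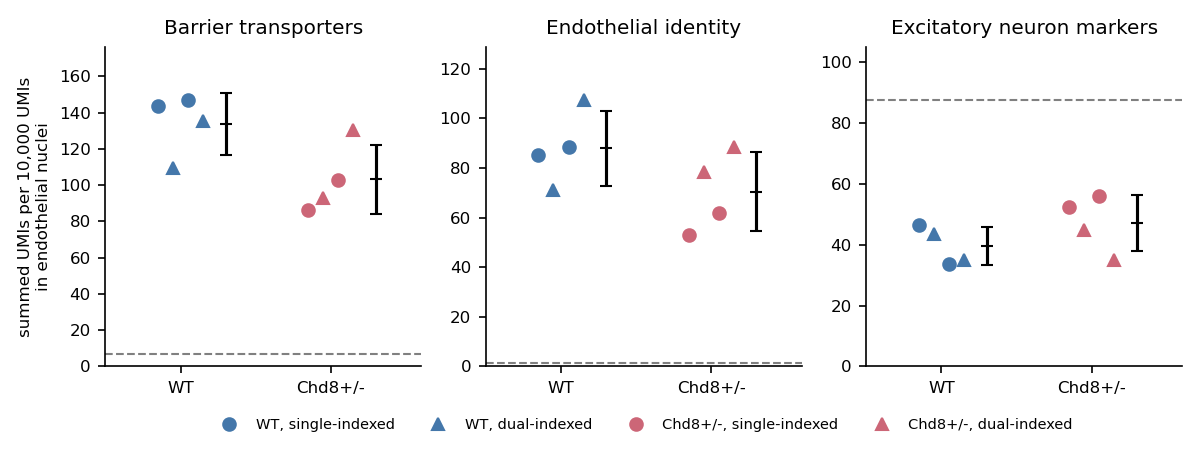
Summed UMIs per 10,000 UMIs in endothelial nuclei for barrier transporters, endothelial identity genes and excitatory neuron markers, 1 point per library, with mean and SD (n = 4) in black and the mean of other nuclei as a dashed line. Summed transporters of the single-indexed libraries lie at 144 and 147 in WT and at 86.4 and 103 in Chd8+/-.

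The differences are given within each index type, and whether they differ between index types was not tested. Summed transporters were 50.6 lower in Chd8+/- than in WT among single-indexed libraries (2 against 2) and 10.6 lower among dual-indexed ones. Summed identity genes were 29.3 and 5.65 lower in Chd8+/-. Excitatory neuron markers differed the other way in the same libraries: their sum was 14.3 higher in Chd8+/- among single-indexed libraries and 0.736 higher among dual-indexed ones, and 46.5, 43.5, 33.6 and 34.9 in WT against 52.4, 44.9, 56.2 and 35.1 in Chd8+/- overall. Of the 12 excitatory markers 10 were tested, 9 with a log2 difference above 0 (median 0.25) and 2 (20.0%), Camk2a and Rbfox3, at an unadjusted p under 0.05. Without Chd8+/- female 1 their median was 0.10 with 5 of 10 above 0, without WT male 2 it was 0.15, without Chd8+/- female 2 it was 0.39, and with the threshold of 8 UMIs it was -0.04 with 4 of 9 above 0. It was 0.66 with 8 of 8 above 0 without nuclei over 5000 UMIs, 0.50 with 4 of 4 among nuclei without any UMI of a limiting gene, and 0.49 with 8 of 9 without predicted doublets. One of the 10, Slc17a7, is limited by the rule, and the other 9 had a median of 0.21. Astrocyte markers had a mean sum of 9.02 in WT and 17.5 in Chd8+/- single-indexed libraries, and of 12.7 and 11.1 in dual-indexed ones, with 4 of 4 tested genes above 0. Inhibitory markers had mean sums of 6.56 and 4.94 in single- and 21.8 and 6.05 in dual-indexed libraries, with 3 of 3 tested genes below 0. The WT mean of 21.8 joined 7.02 in WT male 2 and 36.5 in WT female 2, where 1 nucleus held 166 of the 282 Erbb4 UMIs. Mitochondrial genes had mean sums of 77.5 in WT and 55.8 in Chd8+/- single-indexed libraries and of 49.3 and 61.9 in dual-indexed ones. None of the 12 excitatory markers was at 0. Whether neuronal, astrocyte or mitochondrial RNA in the sums had a part in the lower endothelial levels was not tested.

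The genes behind these medians have different roles. Slc22a8, an organic anion transporter (chr19:8591254-8611835, plus strand), had 3.18, 1.77, 3.38 and 3.5 in WT and 0.904, 1.26, 2.60 and 1.78 in Chd8+/- (log2 -0.91 ± 0.32 SE, edgeR unadjusted p = 0.0101, adjusted p = 0.999), and it was at -0.48 with the threshold of 8 UMIs. It was lower in each Chd8+/- library than in the WT library of the same sex and number, and the ranges overlapped. Slc16a1 had 3.38, 2.66, 3.38 and 1.01 in WT and 1.02, 0.918, 0.520 and 1.71 in Chd8+/- (log2 -1.09 ± 0.41). Tfrc had 2.78, 5.69, 8.07 and 8.17 in WT and 2.05, 3.67, 3.81 and 5.60 in Chd8+/- (log2 -0.72 ± 0.30). Egfl7, a secreted protein that guides vessel tubes, had 5.56, 3.47, 8.85 and 6.77 in WT and 3.19, 2.87, 3.12 and 5.33 in Chd8+/- (log2 -0.68 ± 0.29), and among all genes it had the smallest unadjusted p-value, 0.00365, in the edgeR test against other nuclei (log2 -0.91 ± 0.28, adjusted p = 0.999). The genotype difference of Egfl7 was -0.05 among nuclei without any UMI of a limiting gene, -0.35 with the threshold of 8 UMIs and -1.24 in nuclei of at least 1000 genes and at most 1% mitochondrial UMIs. Against these, Mfsd2a (log2 -0.15 ± 0.33), Abcb1a (-0.08 ± 0.28) and Slc3a2 (0.04 ± 0.37) differed by less than their standard errors.

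In the other lists, too, 0 genes were called. Of the 23 genes of the TGF-beta and BMP list 11 passed the filter on counts, and these lay below 0 with a median of -0.51. Without that filter 16 of 23 lay below 0 (median -0.32), and without Chd8+/- male 1 the median was -0.35. Its gene Id3, a BMP target, had 3.18, 1.70, 1.56 and 2.10 in WT and 0.964, 1.15, 1.56 and 1.23 in Chd8+/-, where the lowest WT and the highest Chd8+/- library are level. The flow-induced Klf2 had 4.77, 4.14, 4.69 and 2.41 in WT and 1.51, 2.06, 1.73 and 3.69 in Chd8+/- (log2 -0.78 ± 0.34), and within dual-indexed libraries its means were 3.28 and 2.88. In the same shear-response list the vasoconstrictor gene Edn1 was at 0.61 ± 0.37 above WT, and 5 of 7 tested genes lay below 0. Of the VEGF and angiopoietin list 8 genes passed the filter and lay below 0 (median -0.27), but Flt1 (-0.02 ± 0.27) and Adgrl4 (-0.16 ± 0.28) are among the genes that chose the nuclei. The other 6 had a median of -0.32, and without the filter 12 of 17 genes of the list lay below 0. In the capillary list 9 of 11 lay below 0 (median -0.26), and Car4, a carbonic anhydrase of capillaries, had 5.96, 2.88, 4.17 and 2.80 in WT and 1.45, 2.06, 2.60 and 2.66 in Chd8+/-. Its genotypes did not overlap, by the narrow gap of 2.80 against 2.66, as in 56 of all 2626 genes (2.13%). Whether single nuclei carry the Car4 gap was not tested. The junction list had a median of -0.12 with 11 of 15 below 0 (10 of 13 without Cldn5 and Pecam1, which chose the nuclei), the Wnt list -0.11 with 8 of 11, and the basement membrane list -0.24 with 10 of 12. Over 22 settings of the fit the junction median was below 0 in 20 and the basement membrane median in 21, and those of the TGF-beta, shear, VEGF, capillary and Wnt lists in 22. The sizes varied between settings. With the threshold of 8 UMIs the shear median was -0.04, the basement membrane median -0.02 (7 of 12 below 0), the capillary median -0.10 and the junction median 0.04 (7 of 15 below 0). With 1 library left out, the shear median of -0.36 ranged from -0.54 without Chd8+/- female 2 to -0.04 without Chd8+/- male 1, where 3 of 6 genes lay below 0. Without the same 2 libraries the capillary median was -0.46 and -0.13, and the junction median -0.31 and -0.08. The Wnt, VEGF and basement membrane medians were -0.37, -0.48 and -0.52 without Chd8+/- male 2. At the other end they were -0.03 without WT female 1, -0.10 without Chd8+/- female 1 (7 of 12 below 0) and 0.03 without WT female 2. The transcytosis and caveolae list (3 of 4 tested genes above 0, median 0.16) and the arterial list (2 of 3, median 0.07) lay above 0. The lists share members, such as Tek, Esam and Slc16a1, and their libraries are the same, so the counts are not separate observations.

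**Figure D5:**
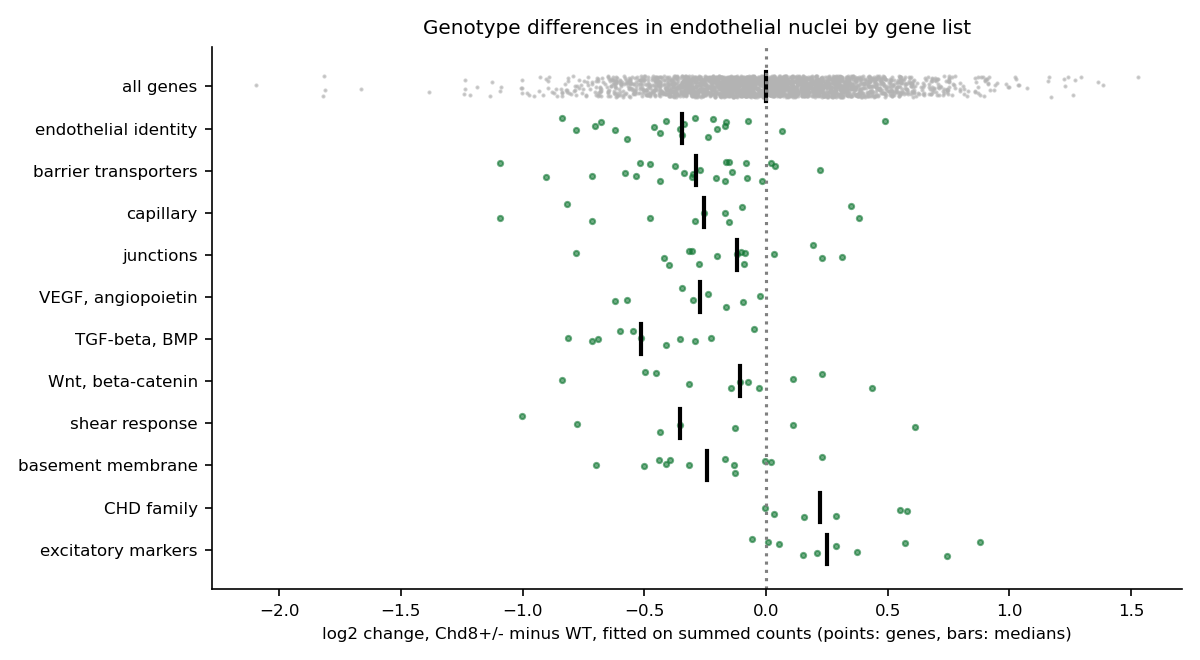
Fitted log2 differences, Chd8+/- minus WT, of single genes in endothelial nuclei (points) for all 2626 tested genes and for 11 lists, with medians as bars. The medians of the 9 endothelial lists drawn lie to the left of 0, with identity at -0.35 and TGF-beta and BMP genes at -0.51, and CHD family and excitatory markers lie to the right, at 0.22 and 0.25.

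Haemoglobin genes were the only ones that any left-out library brought past the threshold between genotypes. Hbb-bs had 55.6, 15.1, 2.34 and 0.778 in WT and 2.77, 3.44, 0.347 and 6.83 in Chd8+/-, with the males high in WT. In WT male 2 a single nucleus held 197 of the 204 Hbb-bs UMIs (96.6%), and without it the level was 0.529, while without the highest nucleus of WT male 1 (175 of 280 UMIs) that library was at 22.1. Without Chd8+/- female 2, Hbb-bt (log2 -4.62), Hbb-bs (-3.33) and Hba-a1 (-3.96) were called lower in Chd8+/- (edgeR adjusted p = 0.00144, 0.00144 and 0.00658). With all 8 libraries their unadjusted p-values were 0.0283, 0.135 and 0.0630. Over all 8 libraries a single nucleus carried 27.6 to 33.8% of each gene's endothelial UMIs, in WT male 2 for Hbb-bs and Hbb-bt and in WT male 1 for Hba-a1, and the near-identical haemoglobin copies can share reads. Red blood cells carry this RNA, and its source in these nuclei was not tested.

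Adarb2, an RNA-binding protein of interneurons, had 0.199, 0.813, 2.60 and 11.2 in WT and 1.02, 0.688, 0.520 and 0.683 in Chd8+/- (log2 -1.81 ± 0.64 SE, edgeR adjusted p = 0.999). Without Chd8+/- female 2 the difference was -1.11. A single nucleus of WT female 2 held 136 of the 202 Adarb2 UMIs, or 67.3%. Without that nucleus WT female 2 was at 0.659, so the high WT mean of 3.71 came from 1 library. The sum of inhibitory markers in WT female 2 was 36.5. Erbb4 made up 21.9 of it, with 166 of its 282 UMIs in 1 nucleus of 1979 UMIs. The nucleus with the 136 Adarb2 UMIs was a different one, of 7161 UMIs.

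Index type and sex served as reference comparisons in the same nuclei. Between dual- and single-indexed libraries 1 gene (0.0381%) was called, AY036118, with 5.17, 13.2, 7.55 and 15.8 in WT and 3.19, 11.7, 3.64 and 18.9 in Chd8+/-, where the dual-indexed libraries are those with 13.2, 15.8, 11.7 and 18.9. All 4 dual-indexed values lay above all 4 single-indexed ones (log2 1.61 ± 0.27 SE, edgeR adjusted p = 0.0425), the gene overlaps Gm42418, and over the fit to all libraries and the 8 that leave out 1, the call held in 3 of 9, with all libraries, without WT male 2 and without WT female 2 (adjusted p from 0.0403 to 0.425). It was also called with DESeq2 (adjusted p = 0.000813), without a count filter (4.16e-05) and with the threshold of 8 UMIs (0.0293), and not with DESeq2's size factors (0.051). At an unadjusted p under 0.05 there were 264 genes (10.1%). Between sexes 3 genes (0.114%) were called: Xist (log2 7.51, adjusted p = 9e-09) and Tsix (8.23) higher in females and the Y-linked Uty (-6.67) lower. Xist had at most 2 UMIs in any male library and at least 37 in any female library, and Uty had 0 in the 4 female libraries. Xist and Tsix were called in 9 of 9 fits with all libraries or 1 left out and Uty in 6 of 9 (adjusted p up to 0.141). Leaving out 1 library gave 2 to 10 called genes, with 10 without Chd8+/- male 2, 7 without Chd8+/- female 2 and 5 without WT male 1. At an unadjusted p under 0.05 there were 160 genes (6.09%). Xist and Tsix overlap on opposite strands, and without strand-specific counting their reads cannot be told apart.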

How the data were processed

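Nuclei from the cerebral cortex of 8 mice were profiled by 10x 3′ RNA sequencing, and the deposited files give UMI counts, raw and not normalized, per gene and barcode with gene and barcode names. Cell Ranger, STAR 2.7.9a and STARsolo and the build mm10 are named in the submitters' processing notes. The sources used here do not give whether introns and strand were used in counting. The 97772 barcodes were reduced to 77185 kept nuclei and 329 endothelial nuclei by the thresholds stated above, and 81 further barcodes met the endothelial threshold but exceeded 2% mitochondrial UMIs. Doublets were predicted with Scrublet in scanpy 1.11.5 and left in. The members, gene lists and tests were chosen with earlier results of these data known, so no pattern in them counts as independent support.

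Counts were summed per library over endothelial nuclei and fitted with edgeR 4.0.16 in R 4.3.3 (quasi-likelihood, terms for sex and genotype, filterByExpr with a minimum count of 10, TMM scaling, Benjamini-Hochberg adjustment over all genes tested, threshold 0.05). DESeq2 1.42.0 was an alternative. The standard error of a log2 difference was its size over the square root of F. The index term was tested with index type added, and the difference from other nuclei in a fit over 16 summed columns with library as a block. Shares and medians were compared by exact permutation over libraries (scipy 1.17.1). With 4 libraries per genotype, each from 1 mouse, p-values measure the spread between these libraries. Intervals cover counting error only. Summed endothelial counts were 38406 to 165999 UMIs per library, so a gene at 1 UMI per 10,000 rests on few molecules. The genes named were the gate genes, the 10 of smallest p for genotype, at most 5 called genes in each direction for the other terms, the 15 of largest ratio over other nuclei, and per list at most 8 by level and 3 by p. Haemoglobin genes, Adarb2's nucleus and genes of a count of 5 or fewer were named after their values were seen. Gene positions are from GENCODE M21 (32235 of 32285 identifiers matched) and promoters from the RefSeq table. One gene of the venous list is not reported here and was left out of the marking. The fitting scripts were tested on simulated data.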

Additional observations from a re-analysis of the deposited data

Results flagged for a closer look

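Plat in the Chd8+/- libraries had 1 value far from the others: Chd8+/- female 1 had 0.173 UMIs per 10,000 UMIs, against 0.663, 0.688 and 0.615 in the other 3, and that value is a single UMI. Among 58 groups of 4 libraries tested this way, chance alone gives about 5%.

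Srgn, the proteoglycan serglycin and a leading gene of the endothelial nuclei, moved in opposite directions in the sexes. Its level was lower in both Chd8+/- males than in both WT males (Chd8+/- minus WT -0.728 UMIs per 10,000) and higher in both Chd8+/- females than in both WT females (0.517). These levels rest on 10, 15, 6 and 17 UMIs in WT male 1, WT male 2, WT female 1 and WT female 2, and on 12, 8, 10 and 32 in the same order for Chd8+/-. WT female 1 and Chd8+/- female 1 were close, at 1.56 and 1.73 UMIs per 10,000. The difference between the sexes was not tested, and 29 measures and genes were examined for such opposite moves.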

How the results depend on the processing

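The absence of genotype calls held in 20 of 21 alternatives, and leaving out 1 library at a time gave 0 to 3. The replicate numbers do not establish pairs: same-numbered libraries of the 2 genotypes deviated together with r from 0.0227 to 0.1763 and 5 of 8 libraries correlated best with their own number. A replicate block called 0 genes (101 at an unadjusted p under 0.05, and 0 with DESeq2), and exact sign-flip permutation over the 4 number-matched pairs gave p = 0.375 for the share, 0.750 for median UMIs, 0.25 for arterial- and 0.750 for venous-marked shares. The stricter nucleus filter turned the median UMI difference to 215 and the arterial-marked difference to -7.95, and shorter lists, added after the data were seen, turned the latter to -0.115. Index type calls were 2 with DESeq2, 0 with DESeq2's size factors, 12 without a count filter and 10 with a gate of 8 UMIs. Without a count filter 14 genes were called for sex and 6 for the difference from other nuclei. With 1 library left out, ranges were -0.0058 to 0.196 for the share, -243 to 13.6 for median UMIs, 5.54 to 10.6 and -8.23 to 4.17 for arterial- and venous-marked shares, 0 to 2 calls for index, 2 to 10 for sex and 0 to 0 for the difference from other nuclei. Lsamp turned to -0.10 when nuclei with any limiting UMI were left out, and Maml3 to 0.23 without nuclei over 5000 UMIs (added after the data were seen) and to 0.15 without WT male 2 (-0.84 to 0.15 with 1 library left out). The causes were not tested. With 17 to 69 nuclei per library, genes of low count could not be tested: 2626 of 17535 genes with a UMI passed the filter.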

Other observations

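Genes of vesicle traffic and of leukocyte contact were measured in few endothelial nuclei. Of 13 genes of transcytosis and caveolae 8 were more than 5-fold higher in endothelial than in other nuclei, and 4 passed the filter on counts, 3 of them with log2 differences above 0 between genotypes. Cavin2, a caveola coat protein, had 0.98 ± 0.34 UMIs per 10,000 (n = 8) against 0.0362 in other nuclei. Of the adhesion and inflammation genes, Il1r1 had 2.22 ± 1.54 against 0.0228, Nfkbia, an inhibitor of NF-kappa-B, 1.51 ± 0.59 against 0.0285, and Cd93, a receptor of the vessel lining, 0.82 ± 0.34 against 0.0083. Of the 17 genes of that list 5 passed the filter on counts. These 5 lay below 0 in Chd8+/-, as did 49.8% of all tested genes, and 0 were called. The mean sum of the list was 20.4 in WT and 13.9 in Chd8+/- among single-indexed libraries, and 16.2 and 15.5 among dual-indexed ones. In the same order it was 20.0 and 12.1 in males and 16.5 and 17.3 in females. Iron handling genes included Slc40a1, the iron exporter, at 2.07 ± 0.95 against 0.0431.

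Of 10 genes called between genotypes in an earlier analysis of these libraries, 6 had enough counts for a test in endothelial nuclei and 0 were called. Maml3, a Notch coactivator, was at -0.54 ± 0.38 SE on the log2 scale, but at 0.15 without WT male 2 and at 0.23 without nuclei over 5000 UMIs, and 14.5% of its 172 endothelial UMIs came from the deepest nucleus of WT male 2.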
